A study of Ipomoea batatas with 28 samples.

Results

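Early growth of the sweet potato storage root was examined by comparing roots of 15 mm in diameter (stage S16) with roots of 10 mm (stage S14), both named storage roots in the labels. The comparison used 8 of 28 RNA-seq libraries, 4 from S16 and 4 from S14, chosen by their stage labels. All came from the middle section of roots of wild type Ipomoea batatas, and the cultivar, plant age and plant of origin of each library are not given in the labels. The other 20 libraries cover fibrous roots (S4, 1.5 mm, and S8, 2 mm), pencil roots (S10, 3.5 mm, and S12, 5 mm) and thicker storage roots (S20, 25 mm), with 4 biological replicates per stage. Replicates are called here by the number in the library name, which runs from 1 to 4 at S16 and from 2 to 5 at S14.

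Sweet potato is a hexaploid crop whose storage roots form when cambia inside a thin root keep dividing and lay down thin-walled storage cells. These cells fill with starch and with storage proteins, of which sporamin is the best known, while the formation of lignified xylem is held back. Roots of 10 and 15 mm have passed the switch to storage growth and are in the phase of bulking, when the organ mainly enlarges.

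Expression was given as TPM, a share of each library's transcripts corrected for transcript length and scaled to the same total. A value is therefore a share and not an amount per cell, and in whole tissue fewer cells of a type and less RNA per cell cannot be told apart. Of 99697 rows in the table, 75757 reached 1 TPM in at least 4 libraries and were tested, and 23940 were left out. Rows carry either a G and TU number or the prefix MSTRG, and 0 of them matched a name in the gene table at hand. No gene name or function is attached to any row, each is called an ID, and neither the markers of storage tissue nor IbNAC083, the gene in the series title, were analysed here. Sequencing depth is unknown, since TPM keeps none, so the spread between libraries is the measure of error.

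The library labelled S14 replicate 4 stood closer to S16 roots than to its own stage. The difference between a pair of libraries was taken as the root mean square of their log2(TPM + 1) differences over all tested IDs. For S14 replicate 4 it averaged 0.810 to the S16 libraries and 0.855 to the other S14 libraries, and its nearest library was S16 replicate 2 at 0.755. S16 replicate 1 showed the mirror image, with a mean of 0.875 to the other S16 libraries and 0.824 to the S14 libraries. The other 6 libraries were, on average, closer to their own stage. The mean over pairs was 0.854 within S16 (range 0.822 to 0.917) and 0.816 within S14 (0.736 to 0.867), against 0.888 between the stages (0.755 to 0.973). No pair of the 8 libraries had identical values. The main count of called IDs is therefore given with and without these libraries, which keep their labels throughout. Since they were picked out by the same values, leaving either out was likely in advance to raise that count.

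**Figure D1:**
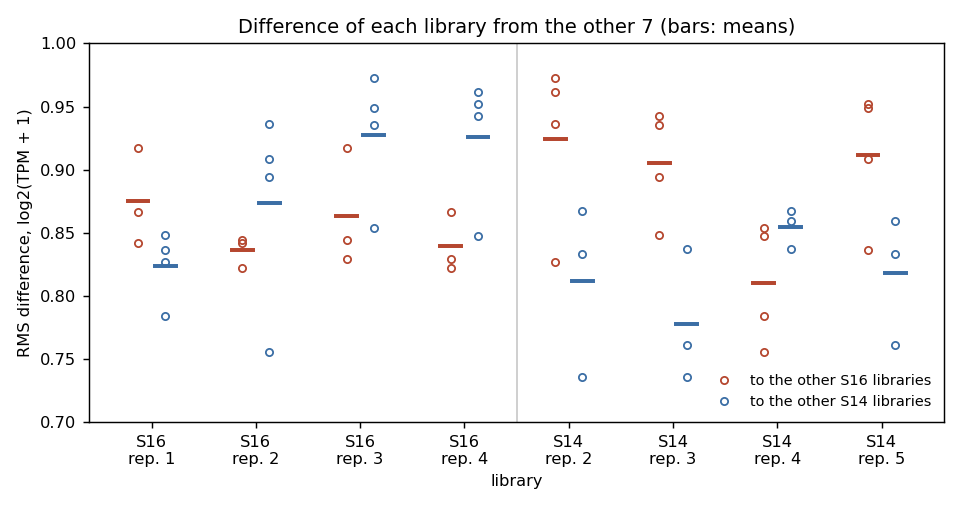
Root mean square difference in log2(TPM + 1) over 75757 IDs between each library (x axis) and the other S16 libraries (red) and S14 libraries (blue), with circles for pairs and bars for means. S14 replicate 4 lies nearer to the S16 libraries (0.810) than to the S14 libraries (0.855), and S16 replicate 1 nearer to the S14 libraries (0.824) than to the S16 libraries (0.875).

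Few IDs were called between 15 mm and 10 mm roots with all 8 libraries. An ID was called when limma gave a Benjamini-Hochberg adjusted p under 0.05 and a fold of at least 1 on the log2(TPM + 1) scale, which understates changes of low IDs. Of 75757 IDs, 101 were called (0.133%), with 34 higher (0.0449%) and 67 lower (0.0884%) at S16. The higher IDs had a median log2 fold of 1.53 and the lower IDs of -1.64, against 0.03 over all IDs tested. The count was 104 without the fold threshold, 1335 without S14 replicate 4 and 570 without S16 replicate 1. The libraries of the 2 stages did not overlap for 33 of the 34 higher and 56 of the 67 lower IDs, and over all IDs tested they did not overlap for 2078 that were higher (2.74%) and 1531 that were lower (2.02%).

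The lower calls were the more frequent in every scaling tried, and their share depended on it. Median-of-ratios scaling left 9 higher and 31 lower IDs, all among the 101, and quantile normalization gave 38 and 98. The 40 IDs of the median-of-ratios scaling were also called after quantile normalization.

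The called IDs were mostly of low abundance, as were the IDs tested. By their mean over all 28 libraries, 15 of the 101 lay under 1 TPM (0.108% of 13880 tested IDs) and 65 between 1 and 5 TPM (0.202% of 32183). Of the 14644 IDs at 10 to 50 TPM 9 were called (0.0615%), of the 1966 at 50 to 100 TPM 3 (0.153%), and of the 1343 at 100 TPM or more 4 (0.298%). The share called was thus highest at 100 TPM or more, though from few calls. Those 4 abundant IDs were all lower at S16. The mean of a called ID reached at most 74.8 TPM at S16 among the higher IDs and at most 289 TPM at S14 among the lower IDs. Together the 34 higher IDs held 0.0256% to 0.0412% of the TPM in S16 libraries and 0.00755% to 0.00988% in S14 libraries. The 67 lower IDs held 0.0273% to 0.0515% in S16 libraries and 0.0915% to 0.209% in S14 libraries, with the lowest of the S14 values in replicate 4. The called IDs thus made up a small part of the RNA at both stages.

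Beyond the calls, more IDs passed a test taken without adjustment. An unadjusted limma p under 0.05 was found for 8543 IDs (11.3%), where 5% would fall on average with no change, and these were split evenly into 4272 higher and 4271 lower at S16. The number was 10355 without S14 replicate 4 and 10255 without S16 replicate 1. The share was much the same at all levels, from 10.2% at 5 to 10 TPM to 14.7% at 100 TPM or more.

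For many IDs a bound could be set in place of a call. The 95% limma interval of the log2 fold lay within -1 and 1 for 40474 IDs (53.4%), so that for these a change of 2-fold or more on the log2(TPM + 1) scale lies outside the interval. That share was 53.9% under 1 TPM and 49.2% at 1 to 5 TPM, where the added 1 TPM makes folds smaller. It was 60.2% at 10 to 50 TPM, 60.8% at 50 to 100 TPM and 50.2% for IDs of at least 100 TPM. The median standard error of a log2 fold was 0.32. For 197 IDs the unadjusted interval lay wholly beyond 1 in size. For the other 35086 IDs it held values on both sides of that bound, so the 4 libraries per stage leave a change of that size undecided. The intervals within the bound numbered 34815 without S14 replicate 4 and 34903 without S16 replicate 1.

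The number of calls rested on single libraries. Without S14 replicate 4, limma called 1335 IDs (1.76% of those tested), of which 306 were higher and 1029 lower at S16, and these included 99 of the 101. Without S16 replicate 1 the count was 570, 214 higher and 356 lower, again with 99 of the 101. Both libraries had been picked out by their distances in the same values, which made more calls without them likely in advance. The larger counts are therefore no evidence for a larger change. Leaving out any of the other 6 libraries gave fewer calls. The count was 94 without S16 replicate 2, 52 without S16 replicate 3, 11 without S16 replicate 4, 10 without S14 replicate 2, 19 without S14 replicate 3 and 24 without S14 replicate 5. Of the 34 higher IDs 23, and of the 67 lower IDs 45, were called in at most 3 of these 8 fits. With library weights, which give irregular libraries less influence, 283 higher and 755 lower IDs were called, and these included all 101. The weight was 0.709 for S14 replicate 4, 0.837 for S16 replicate 1 and 0.783 for S16 replicate 3. The most extreme weights lay outside the comparison, with 0.260 for S4 replicate 1, 3.46 for S10 replicate 1 and 3.39 for S20 replicate 5.

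**Figure D2:**
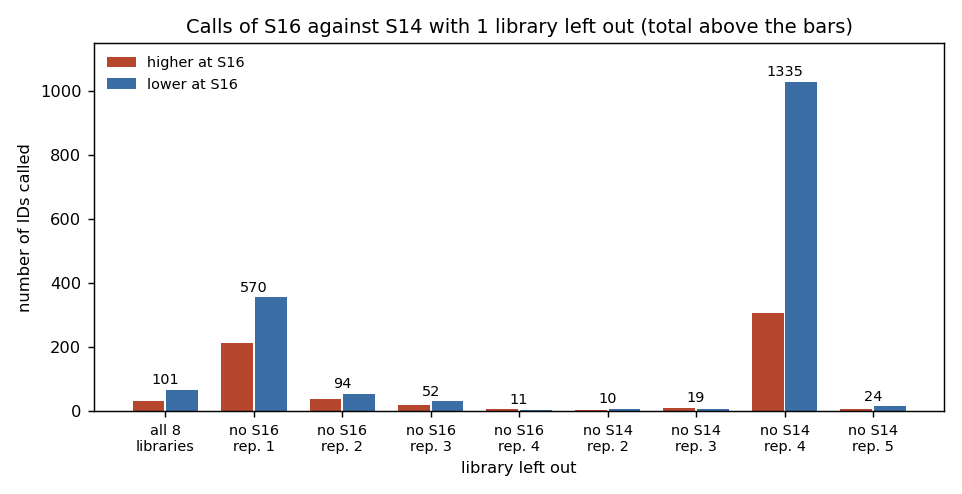
Number of IDs called higher (red) and lower (blue) at S16 than at S14 with all libraries and with each of the 8 libraries left out in turn, with the total above each pair of bars. The total ranges from 10 without S14 replicate 2 to 1335 without S14 replicate 4, against 101 with all libraries.

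The fit shared its estimate of spread over all 7 stages. With the 8 libraries fitted alone, 3 IDs were called (limma), 1 higher and 2 lower, 1 of them among the 101, and 7966 had an unadjusted p under 0.05. With a filter of 5 TPM in at least 4 libraries, which 27 of the higher and 31 of the lower IDs passed, 0 of 41883 IDs were called, 4644 had an unadjusted limma p under 0.05, and the smallest adjusted p was 0.0531.

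The IDs lower at S16 were mainly IDs with a peak at S14. The median over the 67 IDs of the stage mean, in log2(TPM + 1), was 0.29 in S4 roots, 0.47 in S8 roots, 0.58 in S10 roots, 0.82 in S12 roots, 2.86 in S14 roots, 0.91 in S16 roots and 1.43 in S20 roots. For 49 of the 67 the highest of the 7 stage means was that of S14, against 16.4% of all IDs tested. By their mean over all libraries, 14 of the 67 lay under 1 TPM and 39 at 1 to 5 TPM, so the medians mostly reflect low IDs. The 4 at 100 TPM or more had log2 folds of -3.00 to -3.47 for S20 against S12. They did not share the rise of the medians from S12 to S20. The call used the levels at S14 and at S16 and the spread within all 7 stages. An ID with low levels at the other stages can add little to that spread, which favours its call. These medians and counts therefore describe the list and test nothing.

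Within S14 the peak was not equally high in all roots. The median log2 level of the 67 IDs was 3.16 in S14 replicate 2, 3.15 in replicate 3, 2.06 in replicate 4 and 2.96 in replicate 5. Among the S16 libraries it was 1.52 in replicate 1, 0.77 in replicate 2, 0.80 in replicate 3 and 0.70 in replicate 4. S14 replicate 4 was the S14 library nearest to the S16 mean for 53 of the 67 IDs, against 31.3% of all IDs tested. S16 replicate 1 was the S16 library nearest to the S14 mean for 39 of the 67, against 34.3% of all IDs tested.

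The IDs higher at S16 followed another course. The median of their stage means was 0.34 in S4 roots, 0.50 in S8 roots, 0.48 in S10 roots, 1.07 in S12 roots, 1.10 in S14 roots, 2.83 in S16 roots and 3.25 in S20 roots. The highest stage mean was that of S20 for 22 of the 34 IDs, against 31.3% of all IDs tested, and that of S16 for 10, against 13.6%, while the remaining 2 were highest at S4. The S12 and S14 means lay close together, with the S12 mean the lower in 14 of the 34 IDs. The 4 S16 libraries had medians of 2.62, 2.66, 2.57 and 3.11 in replicates 1 to 4, and the 4 S14 libraries had 0.91, 1.05, 1.38 and 1.10 in replicates 2 to 5. These medians did not overlap, which the choice of IDs by this contrast made likely in advance, so they are a description. S14 replicate 4 was again the S14 library nearest to S16.

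**Figure D3:**
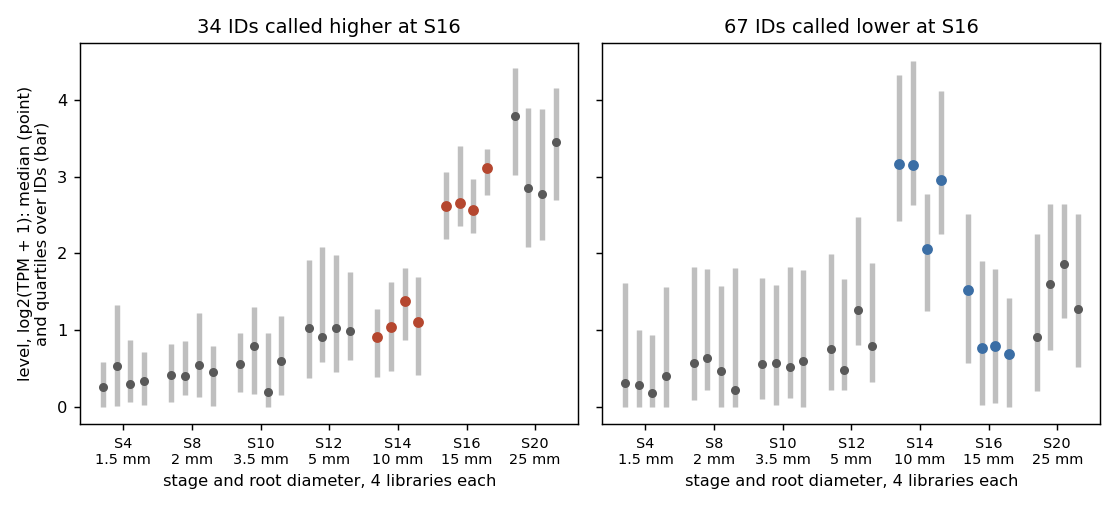
Level in log2(TPM + 1) of the 34 IDs called higher (left) and the 67 IDs called lower (right) at S16, in each of 28 libraries ordered by stage and root diameter. Points are medians over the IDs and grey bars their quartiles, with S14 and S16 in colour. The medians of the lower IDs peak at S14 with replicate 4 below the other S14 libraries (2.06). Those of the higher IDs step up at S16 and stay up at S20.

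Libraries outside the comparison were used to ask where the called IDs stood over a wider range of thickness. The thickest roots, S20, were set against S12, the last stage before storage roots, and this contrast shares no library with S16 against S14. In it limma called 16911 IDs (22.3%), of which 10312 were higher (13.6%) and 6599 lower (8.71%) at S20. Of the 34 IDs higher at S16, 29 (85.3%) were also called higher at S20 than at S12 and 0 were called lower, and all 34 had a positive log2 fold, with a median of 1.73 against 0.08 over all IDs tested. Of the 67 IDs lower at S16, 15 (22.4%) were called lower at S20 than at S12, 14 (20.9%) were called higher and 38 had a positive fold, with a median of 0.32. The IDs higher in 15 mm than in 10 mm roots were thus mostly higher in 25 mm than in 5 mm roots as well. Of the lower IDs most were called in neither direction, and those that were called went both ways. By their mean over all 28 libraries, the 4 lower IDs of 100 TPM or more were all called lower at S20 (log2 folds -3.00 to -3.47). So were the 2 at 50 to 100 TPM (-3.93 and -3.76). The 6 at 10 to 50 TPM were also called lower, except G24362_TU39927, which was called higher (1.75). The remaining calls in this contrast fell on lower IDs under 10 TPM. Both contrasts used the same estimate of each ID's spread, so that an ID with a small spread was more likely to be called in both. An ID whose S12 mean is under 1 in log2(TPM + 1) cannot fall by 1 unit, so it cannot be called lower at S20. The median S12 mean was 1.07 for the higher and 0.82 for the lower IDs, so low levels limited the calls of lower in both lists. All tested IDs were not matched to the lists by level.

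The difference between higher and lower IDs in S20 against S12 was less sharp in longer lists. The lists without S14 replicate 4 or S16 replicate 1 depend on a choice of libraries made by the same values. Of the 306 IDs called higher at S16 without S14 replicate 4, 40.8% were called higher at S20 than at S12 and 5.88% lower. Of the 1029 called lower, 244 (23.7%) were higher and 144 lower at S20. Without S16 replicate 1 the shares were 41.1% and 7.48% for the 214 higher IDs, and 24.2% and 15.7% for the 356 lower IDs. Among the 4272 IDs with an unadjusted p under 0.05 and a higher level at S16, 28.4% were called higher at S20 than at S12 and 8.52% lower, and among the 4271 with a lower level 14.2% were higher and 14.2% lower.

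Whole transcriptomes placed the 15 mm roots little further along the course of thickening than the 10 mm roots. Each library was projected on the line from the S12 mean, set to 0%, to the S20 mean, set to 100%, over all 75757 IDs. The S16 libraries stood at 52.9%, 46.4%, 46.3% and 47.7% in replicates 1 to 4 and the S14 libraries at 46.6%, 46.4%, 42.8% and 41.0% in replicates 2 to 5. The groups overlapped, with means of 48.3% ± 3.10 at S16 and 44.2% ± 2.73 at S14 (SD, n = 4 each). The difference of 4.11 percentage points did not pass a two-sided exact permutation test (p = 0.143, Benjamini-Hochberg adjusted over 4 such tests 0.286), in which the smallest possible p is 0.0286. With a pseudocount of 5 TPM the difference was 5.19 percentage points and reached that smallest p (exact permutation p = 0.0286, unadjusted), and over all alternatives the unadjusted exact permutation p ran from 0.0286 to 0.400. The means of S14 and S16 thus both lay short of the midpoint between pencil roots of 5 mm and storage roots of 25 mm, and S16 replicate 1 was the single library past it. Whether the means differ from the midpoint was not tested, and that of S16 lay within 1 SD of it. The ends of the line are means of 4 libraries each. Noise in them draws positions toward the middle of the line and makes differences smaller, by an amount that was not estimated.

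On the earlier part of the course the S16 libraries were the more scattered. On the line from the mean of the 2 fibrous stages (0%) to the S12 mean (100%) the S16 libraries stood at 122%, 109%, 83.5% and 96.1% and the S14 libraries at 116%, 108%, 109% and 99.7%. The means were 103% ± 16.5 at S16 and 108% ± 6.76 at S14 (SD, n = 4 each), and their difference of -5.73 percentage points did not pass the exact permutation test (p = 0.600, adjusted 0.600) and turned to 0.628 without S16 replicate 3. S16 replicate 1 was the highest library on both lines and S16 replicate 3 the lowest on this line. S16 replicate 1 was thus closer to the S14 libraries in overall difference and at the same time furthest along both lines.

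**Figure D4:**
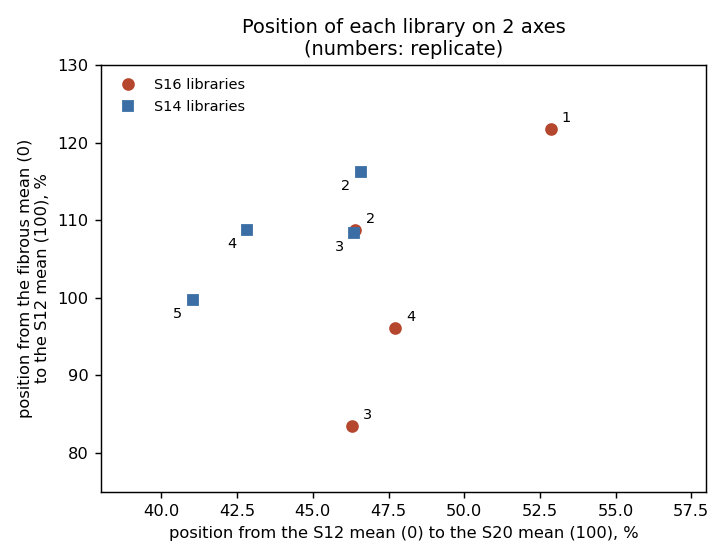
Position of the S16 libraries (red circles) and the S14 libraries (blue squares), in percent, on the line from the S12 to the S20 mean (x axis) and on the line from the fibrous to the S12 mean (y axis), with replicate numbers beside the points. The groups overlap on both axes, and S16 replicate 1 lies at the top right (52.9% and 122%).

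The breadth of the transcriptome did not separate the stages either. At a threshold of 1 TPM, 59064 ± 780.2 IDs were present in S16 and 59831 ± 1269 in S14 libraries (SD, n = 4 each; exact permutation p = 0.314, adjusted 0.419), while at a threshold of 5 TPM the S16 libraries held 280 more on average. The 1000 most abundant IDs held 32.5% ± 1.27 of the TPM at S16 and 35.2% ± 3.21 at S14 (SD, n = 4 each; exact permutation p = 0.143, adjusted 0.286). The S14 values were 34.2%, 33.6%, 33.0% and 39.9% in replicates 2 to 5, so that replicate 5 was the highest, and without it the means differed by -1.08 percentage points.

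Since no name was at hand, 4 IDs are given as examples. Both falling IDs have the largest folds among called IDs that averaged 10 TPM or more in the higher stage, with no overlap and with a call in at least 5 of the 8 fits with a library left out, a rule that 5 lower and 0 higher IDs met. The 2 rising IDs were picked after their values were seen, as the higher IDs called in all 8 of those fits.

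MSTRG.3281 had its highest stage mean in S14 roots. It was listed at 0 TPM in all 4 S16 libraries, against 62.2, 24.6, 0.83 and 17.2 TPM in S14 replicates 2 to 5 (limma adjusted p = 0.0125). No fold is given, since the S16 values are all 0. The call was lost with the 2 stages fitted alone (limma adjusted p = 0.379). A filter of 5 TPM in at least 4 libraries left this ID out untested. The groups did not overlap, but S14 replicate 4 was far below the other S14 roots. In the 16 fibrous and pencil libraries the ID never passed 0.56 TPM, and in S20 it ranged from 0 to 3.40 TPM.

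G37702_TU61766 was highest on average in S14 roots, with a dip at S16 and a higher mean again at S20. It had 4.95, 2.15, 1.70 and 2.16 TPM in S16 replicates 1 to 4, against 25.6, 22.6, 6.41 and 19.7 TPM in S14 replicates 2 to 5, with S16 replicate 1 and S14 replicate 4 the nearest to each other. It was lower at S16 with a log2 fold of -2.31 (limma, SE 0.37, adjusted p = 0.0136), and the adjusted p was 0.0781 without S14 replicate 2, 0.0663 without S14 replicate 3 and 0.0574 without S16 replicate 4. The call was also lost with a pseudocount of 0.1 (limma adjusted p = 0.139), with a filter of 5 TPM (0.0531) and with the 2 stages fitted alone (0.347). Its means were 1.78 ± 0.510 TPM in S10 roots, 5.17 ± 3.26 TPM in S12 roots, 18.6 ± 8.47 TPM in S14 roots, 2.74 ± 1.49 TPM in S16 roots and 9.08 ± 1.54 TPM in S20 roots (SD, n = 4 per stage). By these means the 10 mm roots were the highest, and the 15 mm roots lay below both the 5 mm and the 25 mm roots.

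MSTRG.63395 had its highest stage mean in 15 mm roots. It had 3.98, 5.38, 5.91 and 6.08 TPM in S16 replicates 1 to 4, against 0.45, 0.77, 0.82 and 0.82 TPM in S14 replicates 2 to 5, and the groups did not overlap. The log2 fold was 1.88 (SE 0.28, limma adjusted p = 0.0110). The call was lost with a pseudocount of 0.1 (limma adjusted p = 0.218), with a filter of 5 TPM (0.0531), with the 2 stages fitted alone (0.140), and with a pseudocount of 5, where the fold was 0.85. At S20 the 4 roots ranged from 1.42 to 7.27 TPM, overlapping S16. The limma contrast of S20 against S12 gave a log2 fold of 1.75 (SE 0.28, adjusted p = 3.23e-05).

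G44080_TU71470 was present in 15 mm and 25 mm roots. It had 2.56, 1.72, 0.99 and 2.85 TPM in S16 replicates 1 to 4 and was listed at 0 in all 4 S14 libraries (limma adjusted p = 0.00278), so no fold is given. The call was lost with the 2 stages fitted alone (limma adjusted p = 0.284) and with a pseudocount of 5, where the fold fell under the threshold. A filter of 5 TPM in at least 4 libraries left this ID out untested. In the 16 fibrous and pencil libraries it never passed 0.09 TPM, and at S20 it ranged from 1.08 to 3.25 TPM. The other rows of the same G number, of which there are 3 in all, were present at S14, with 0.84, 0.46, 0.54 and 1.34 TPM in replicates 2 to 5. Their sum was 0, 1.91, 5.87 and 0 TPM in S16 replicates 1 to 4. The zeros at S14 are therefore zeros of a row and not of the whole G number.

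**Figure D5:**
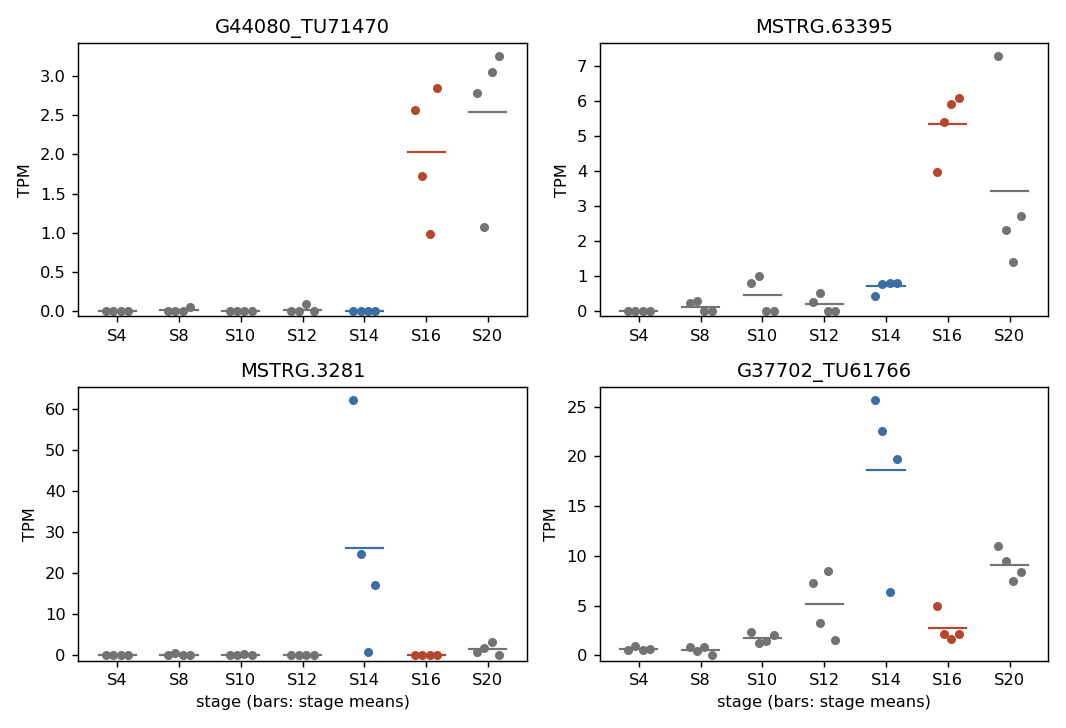
TPM of 4 IDs in each library by stage, with S16 in red, S14 in blue and other stages in grey, and bars for stage means. The upper IDs are higher at S16 (3.98 to 6.08 TPM for MSTRG.63395, against 0.45 to 0.82 at S14) and the lower IDs peak at S14, where replicate 4 is the lowest S14 library in both.

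Since several rows can belong to the same gene, the calls were also read per G number. Of the 101 called IDs 83 carry a G number, and 45 of these share it with other rows. The summed rows had a log2 fold of at least 1 in the same direction for 36 of the 45, a smaller fold in the same direction for 8 and the opposite sign for 1. With rows summed before the fit, limma called 82 of 61401 entries (0.134%), of which 27 were higher and 55 lower at S16. In a hexaploid, near-identical copies can share reads, and how these were divided between IDs is uncertain.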

How the data were processed

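RNA-seq of 28 root libraries was analysed from a single table of TPM values deposited by the authors, 1 column per library, length-corrected and scaled to the same total. TopHat2 2.0.0 and RSEM 1.3.1 are named, per the submitters' processing notes. Their roles, the genome build, the annotation and the depth are not given in the sources used here. The gene table searched for names held 175826 rows.

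Values were taken as log2(TPM + 1). limma 3.58.1 (R 4.3.3) was fitted with a mean for each of the 7 stages (28 libraries, trended prior), and the contrast S16 minus S14 was adjusted over all tested IDs. Projections and exact permutation tests (70 choices of 4 from 8 libraries) used SciPy 1.17.1 with NumPy 2.4.6, pandas 2.3.3 and Matplotlib 3.10.9 in Python 3.11.15. Steps were tested on simulated data. For the projection these data took the stage means at the ends of the line as exact, so the effect of noise in those means was not covered.

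The comparison, tests and naming rule were chosen with earlier results of these data known. The rule took the 2 largest folds in each direction among called IDs that averaged 10 TPM or more in the higher stage, with no overlap and a call in at least 5 of 8 fits without 1 library. Alternatives were pseudocounts, filters, scalings, library weights, replicate blocks, a fit to 2 stages, and removal of libraries. Summing rows per G number was added after the data were seen.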

Additional observations from a re-analysis of the deposited data

Results flagged for a closer look

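In groups of 4 libraries, a library was marked when its gap to the nearest other library was a larger part of the group's range than Dixon's critical value at the 95% level. Of 18 groups looked at 3 were marked, and chance marks about 1 in 20. The median log2 level of the 67 IDs called lower was 1.52 in S16 replicate 1, above the other S16 libraries. G37702_TU61766 stood at 4.95 TPM in S16 replicate 1, likewise above the others. MSTRG.63395 stood at 0.45 TPM in S14 replicate 2, below the other S14 libraries.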

How the results depend on the processing

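No ID called here was called in the opposite direction under any alternative run on the same IDs. The counts moved more. In place of 101 calls (34 higher, 67 lower), limma gave 8 (4 and 4) with a pseudocount of 0.1, 0 (0 and 0) with a filter of 5 TPM, 40 (9 and 31) with median-of-ratios scaling, 1038 (283 and 755) with library weights and 3 (1 and 2) with S14 and S16 fitted alone. Lower calls were 118 with a pseudocount of 5 and 102 with no filter. Leaving out 1 of the 8 libraries gave 10 to 1335 calls, 3 to 306 higher and 5 to 1029 lower. A replicate block gave 40 calls (14 and 26) with the number in the library name and 52 (19 and 33) with the number in the title. Deviations of same-numbered libraries correlated at -0.0842 to 0.0303 by name and at -0.0182 to 0.113 by title. With so few pairs, and no differently numbered pairs beside them, these values cannot decide whether the numbers pair the libraries. Intervals within 1 log2 unit were 20590 with a pseudocount of 0.1, 66900 with a pseudocount of 5 and 21947 with a filter of 5 TPM. S20 against S12 gave 6876 calls with a pseudocount of 5 and 25724 without the fold threshold. The S12 to S20 position differed by 5.19 percentage points with a pseudocount of 5 (exact permutation p = 0.0286, unadjusted, the smallest possible, with a range of 0.0286 to 0.400 over the alternatives). The difference on the fibrous to S12 line ranged from -12.2 to 0.628 percentage points with 1 library left out, its highest value without S16 replicate 3, and at a threshold of 5 TPM the S16 libraries held 280 IDs more on average. The causes of these shifts were not tested. Depth is unknown, and 4 libraries per stage limit the precision.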

Other observations

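The IDs called higher lay close together in the numbering in places. Of the 29 higher IDs with a G number 7 fell, in 6 G numbers, within a run of 356 consecutive numbers. That run held 422 of the 57156 tested IDs with a G number. In it 0 IDs were called lower, which says little, since lower calls were 0.0884% of all tested IDs. The densest run of the same kind among the lower IDs held 3 calls. These runs were found after the values were seen, were not tested, and whether the numbers follow the order of the genome is not given in the sources used here.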
